A study of Mus musculus with 6 samples.

Results

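The genes described here are 37 members of the integrated stress response and of the unfolded protein response, chosen by symbol from the 24054 genes of the deposited tables. All 37 were found and all 37 passed the filter on low counts. They fall into 4 groups by role: 12 stress regulators around the transcription factor Atf4, 8 enzymes of amino acid synthesis and one-carbon metabolism, 9 aminoacyl-tRNA synthetases, and 8 chaperones and other genes of endoplasmic reticulum (ER) stress. The first 3 groups are referred to as the amino acid arm and the last as the ER group.

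The cells were macrophages grown from bone marrow for 7 days in medium conditioned by L929 fibroblasts. The 4 groups were C57BL/6 wild type untreated (1 library), C57BL/6 wild type given oxidised low-density lipoprotein (oxLDL; 1 library), Kindlin3-integrin mutant untreated (2 libraries) and Kindlin3-integrin mutant given oxLDL (2 libraries). The mutant is on the C57BL/6 background, is titled KI, and no source used here names its exact allele. oxLDL, a lipoprotein that loads macrophages with lipid, was given at 50 µg/ml for 24 hours. No source used here gives the age of the mice, or says whether replicates were separate mice or separate cultures. A p-value therefore measures the spread among these libraries only, which may be technical. Kindlin-3 is the protein by which blood cells activate integrins.

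The libraries held 11281692 to 24273551 counts. The 8 macrophage markers set for a check were all detected in every library. Their summed levels were 20538 to 30292 CPM (counts scaled by library size and a normalisation factor) in the untreated and 10452 to 19920 CPM in the oxLDL libraries. The marker sum, of which Lyz2 was the largest part in every library, was thus lower with oxLDL in both genotypes. The markers did not move together. Emr1, Csf1r, Lyz2, Fcgr1 and Itgam were lower with oxLDL in both genotypes, whereas Cd68 and Mertk were higher in both. Mrc1 overlapped between treatments in the mutant and was higher with oxLDL in wild type. The part of these markers in the oxLDL results was not tested. Transcripts of the pancreas were present in 3 libraries: of 27 marker genes 25 and 27 were detected in the mutant oxLDL pair and 26 in wild type untreated, with sums of 212, 168 and 283 CPM. In each of the other 3 libraries 2 of the 27 were detected, with sums of 3.15 and 3.45 CPM in the mutant untreated pair and 1.86 CPM for wild type with oxLDL. Wild type untreated also had the highest sum of 7 neutrophil markers, 32.5 CPM against 5.06 to 7.25 CPM in the other libraries. Fermt3, which encodes Kindlin-3, measured 239 and 248 CPM in mutant untreated, 146 and 153 CPM in mutant oxLDL, 404 CPM in wild type untreated and 188 CPM for wild type with oxLDL, so it was lower in the mutant within each treatment. Fewer cells of a type and less RNA per cell cannot be told apart in such bulk RNA.

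When amino acids run short, when unfolded proteins build up in the ER or when mitochondria fail, dedicated kinases phosphorylate the initiation factor eIF2 alpha. General translation then slows while the mRNA of Atf4 is translated more, and ATF4 switches on genes that import and make amino acids and charge tRNAs. The unfolded protein response has separate branches, run by the transcription factors XBP1 and ATF6, that mainly raise ER chaperones and degradation factors. In macrophages both programmes are known from lipid loading and atherosclerosis. Because ATF4 is controlled largely at translation, an mRNA level of Atf4 is not a measure of its protein.

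The promoter sequences of 33 of the 37 members were found in RefSeq (build GRCm38.p6), as windows from 250 bases before to 50 bases after each transcription start. The C/EBP-ATF response element, at which ATF4 dimers bind, was searched as TGATGNAA on both strands. It was present for 10 of the 33 members (9 of 25 in the amino acid arm and 1 of 8 in the ER group) and for 4.51% of all 27025 RefSeq genes, or 3.97% of all 32851 windows. The ER stress response element, read by ATF6 and XBP1, was searched on both strands as CCAAT and CCACG with any 9 bases between them. It was present for 3 members, all in the ER group, for 0.137% of all genes and in 0.119% of all windows, and 0 members held both elements. TGACGTGG, an XBP1 element, was present for 0 of 33 members, for 0.714% of all genes and in 0.676% of all windows. A match is a description of these letters, not a known binding site. The stretches below are shown as examples of each element, and include Herpud1, the ER member with the ATF4 element. The match is in capitals, each read 5′ to 3′ on the gene's own strand, so that a match on the opposite strand appears as its reverse complement.
Asns (chr6:7693210-7693252, minus strand): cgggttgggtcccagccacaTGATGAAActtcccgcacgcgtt
Chac1 (chr2:119351029-119351076, plus strand): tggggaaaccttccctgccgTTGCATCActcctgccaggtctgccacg
Atf3 (chr1:191183416-191183463, minus strand): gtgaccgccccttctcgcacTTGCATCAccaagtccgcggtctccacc
Gars (chr6:55037951-55037998, plus strand): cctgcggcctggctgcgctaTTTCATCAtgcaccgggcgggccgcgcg
Nupr1 (chr7:126625553-126625600, minus strand): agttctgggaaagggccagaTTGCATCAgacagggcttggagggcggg
Herpud1 (chr8:94386297-94386344, plus strand): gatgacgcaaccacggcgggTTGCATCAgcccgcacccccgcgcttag
Hspa5 (chr2:34772005-34772063, plus strand): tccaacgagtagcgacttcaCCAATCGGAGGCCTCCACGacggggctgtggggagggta
Hsp90b1 (chr10:86705618-86705676, minus strand): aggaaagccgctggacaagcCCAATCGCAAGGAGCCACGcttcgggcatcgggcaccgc
Creld2 (chr15:88819500-88819558, plus strand): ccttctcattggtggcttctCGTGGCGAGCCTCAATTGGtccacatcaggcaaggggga

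In mutant macrophages, the arm with 2 libraries on each side, oxLDL was followed by a rise across most of the amino acid arm of the set. Hspa5 and Hsp90b1, the most abundant of the ER group, differed by less than their error. This contrast is limited to the set. Outside it 15 of 25 further ER genes rose, but only 4 of 11 other cytosolic synthetases and 5 of 21 further enzymes, of which 7 fell. Of the 37 members 28 passed edgeR's quasi-likelihood test at a false discovery rate of 0.05, of which 24 rose and 4 fell. Over all 12689 genes tested 35.6% passed, 16.5% rising and 19.1% falling. By at least 2-fold 14 members rose and 1 fell, against 5.59% and 10.6% of all genes tested. The median log2 fold change of the members was 0.89, against 0.01 over all genes tested. By role, 9 of 12 stress regulators rose and 2 fell, 5 of 8 enzymes rose, and 8 of 9 tRNA synthetases rose. In the ER group 2 of 8 rose and 2 fell, with a median of -0.12. Taking both genotypes together, the 3 oxLDL libraries were all above the 3 untreated ones for 26 of 37 members and all below for 4, where the same held for 25.0% and 22.8% of all genes tested.

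**Figure D1:**
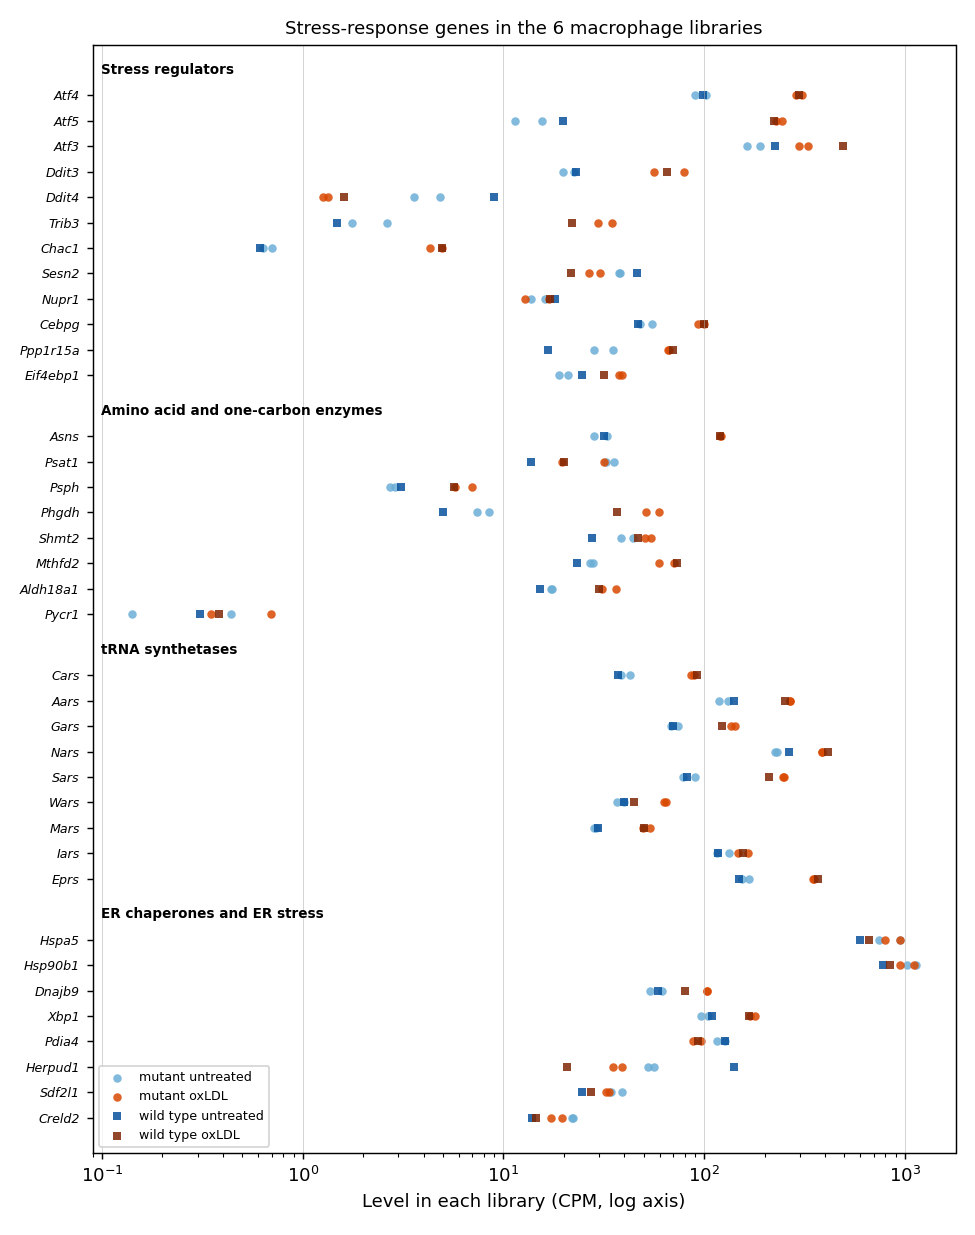
Level of each of the 37 genes in each library, in CPM on a log axis, by role; circles are mutant and squares wild-type libraries, blue untreated and red-brown oxLDL. All 9 tRNA synthetases have their 3 oxLDL libraries above their 3 untreated ones, whereas the symbols of Hspa5 and Hsp90b1 overlap.

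Among the stress regulators, Atf4 measured 102 and 89.8 CPM untreated and 286 and 307 CPM with oxLDL in the mutant, and 99.1 and 299 CPM in wild type. The 3 treated libraries were all above the 3 untreated ones, and the genotypes lay close together within each treatment. Atf4 rose 3.06-fold in the mutant, a log2 fold change of 1.61 ± 0.11 (SE; edgeR adjusted p = 0.000449). Atf5, a related factor whose translation is under the same control and which is linked to mitochondrial stress, measured 15.5 and 11.5 CPM untreated and 227 and 244 CPM with oxLDL in the mutant. In wild type it measured 19.9 and 224 CPM. The treated levels of Atf5 were thus similar in both genotypes, and its rise in the mutant was the largest of all members at 17.4-fold (log2 fold change 4.12 ± 0.16, adjusted p = 0.000168).

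Trib3, which encodes a pseudokinase induced downstream of ATF4, measured 2.63 and 1.76 CPM untreated and 29.5 and 34.6 CPM with oxLDL in the mutant, and 1.48 and 21.96 CPM in wild type. The groups did not overlap, and Trib3 rose 14.6-fold in the mutant (adjusted p = 0.000368). Chac1, whose product degrades glutathione, was low throughout, at 0.701 and 0.634 CPM untreated and 4.97 and 4.32 CPM with oxLDL in the mutant, and 0.614 and 4.93 CPM in wild type. It rose 6.87-fold in the mutant (log2 fold change 2.78 ± 0.32, adjusted p = 0.00208). Ddit3, which encodes CHOP, a factor tied to stress-induced death, measured 22.5 and 19.7 CPM untreated and 56.4 and 79.7 CPM with oxLDL in the mutant, and 23.1 and 65.1 CPM in wild type. The treated mutant libraries of Ddit3 differed from each other more than the untreated ones but stayed above them, with a rise of 3.19-fold (adjusted p = 0.00208).

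Ppp1r15a, whose product GADD34 brings a phosphatase to eIF2 alpha and so ends the response, measured 34.97 and 28.2 CPM untreated and 66.5 and 65.8 CPM with oxLDL in the mutant. In wild type it measured 16.6 and 70.2 CPM, so the wild type started lower and ended at about the same level. It rose 2.08-fold in the mutant (adjusted p = 0.00258). Atf3, a stress-induced factor that restrains inflammatory genes in macrophages, measured 190 and 164 CPM untreated and 296 and 330 CPM with oxLDL in the mutant, and 227 and 490 CPM in wild type. It rose 1.75-fold in the mutant (adjusted p = 0.00440), and the wild-type oxLDL library was the highest of the 6. Cebpg, a dimer partner of ATF4, measured 55.3 and 47.9 CPM untreated and 92.8 and 100.1 CPM with oxLDL in the mutant, and 46.8 and 99.8 CPM in wild type. Its treated libraries were all above the untreated ones, and it rose 1.85-fold in the mutant. Eif4ebp1, a repressor of cap-dependent translation, rose 1.90-fold.

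Not all regulators moved up. Ddit4 (REDD1), an inhibitor of the growth kinase complex mTORC1, measured 3.59 and 4.86 CPM untreated and 1.26 and 1.34 CPM with oxLDL in the mutant, and 9.01 and 1.60 CPM in wild type. Its treated libraries were all below the untreated ones, and it fell 3.28-fold in the mutant (log2 fold change -1.72 ± 0.28, adjusted p = 0.00668). Sesn2, a leucine sensor that also restrains mTORC1, measured 37.6 and 38.2 CPM untreated and 30.4 and 26.8 CPM with oxLDL in the mutant, and 46.4 and 21.6 CPM in wild type. It fell 1.34-fold in the mutant (adjusted p = 0.0306), which no longer held when mutant untreated replicate 1 (adjusted p = 0.104) or 2 (0.129) or mutant oxLDL replicate 2 (0.122) was omitted, or in DESeq2 (0.0841). Ddit4 and Sesn2 are both known as ATF4 targets, yet their levels moved against those of Trib3 and Atf5. Nupr1, a small stress-induced chromatin protein, measured 12.9 to 18.0 CPM over the 6 libraries with overlapping groups (log2 fold change -0.01 ± 0.19, adjusted p = 0.959).

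**Figure D2:**
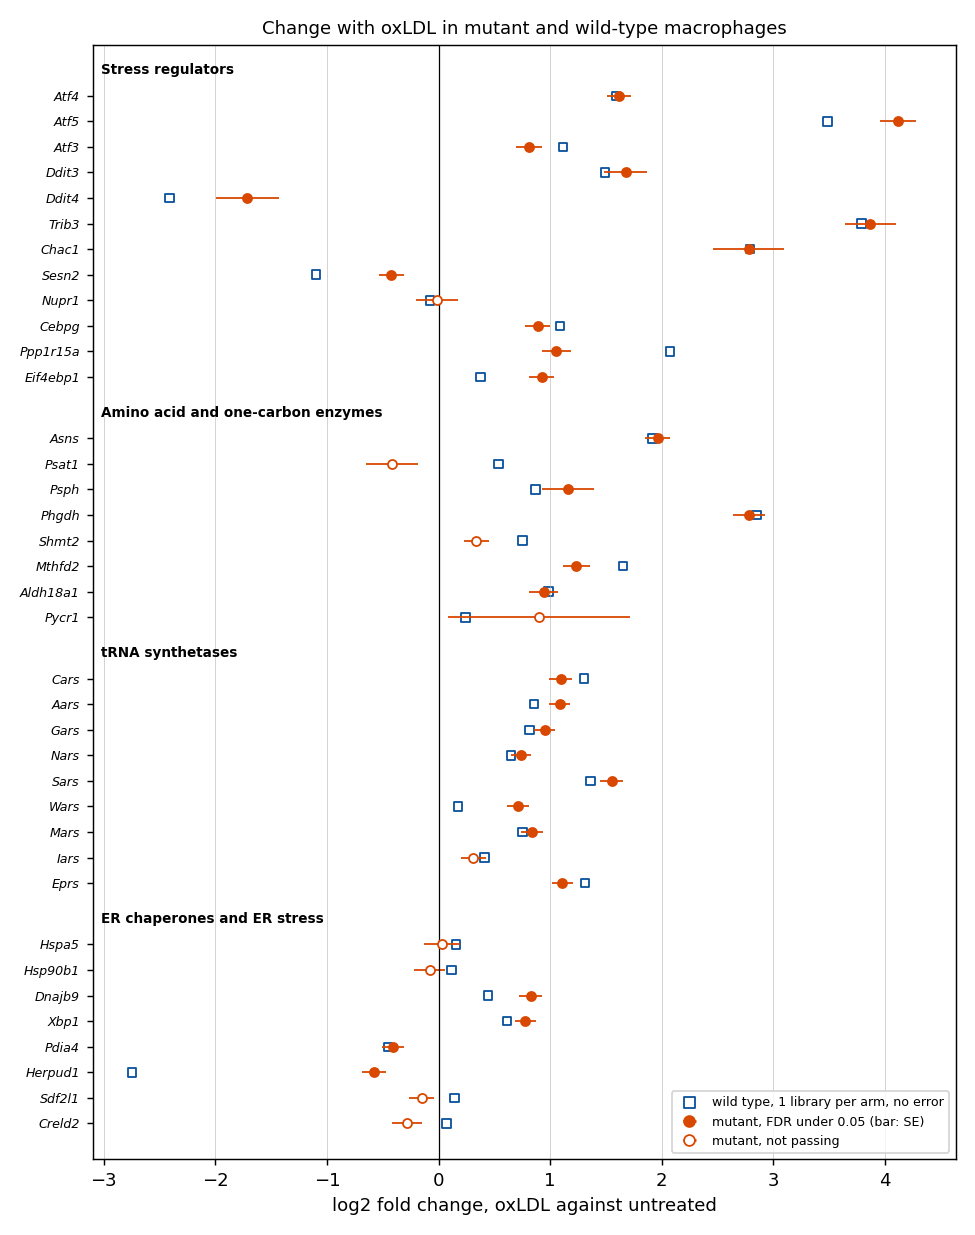
Log2 fold change with oxLDL of each gene, with circles and SE bars for the mutant (filled where the false discovery rate is under 0.05) and open squares for wild type, which has 1 library per arm. Atf5, Trib3, Chac1 and Phgdh lie furthest to the right in both genotypes, and Ddit4 and Herpud1 to the left.

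The enzymes did not move as 1 block, even within the serine pathway. Serine is made from a glycolytic intermediate in 3 steps, catalysed in turn by the products of Phgdh, Psat1 and Psph. Phgdh measured 7.36 and 8.52 CPM untreated and 59.6 and 51.2 CPM with oxLDL in the mutant, and 5.02 and 36.8 CPM in wild type. Its groups did not overlap, and it rose 6.89-fold in the mutant (log2 fold change 2.78 ± 0.15, adjusted p = 0.000307). Of its sequence 35.8% is also found in other genes, mainly the gene model Gm7901, so its counts depend on how reads were divided. Psph measured 2.72 and 2.89 CPM untreated and 6.97 and 5.71 CPM with oxLDL in the mutant, and 3.07 and 5.70 CPM in wild type. It rose 2.24-fold in the mutant (adjusted p = 0.0127), and without mutant untreated replicate 1 or 2 the adjusted p was 0.0622 and 0.0626.

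Psat1, the middle step, behaved otherwise. It measured 32.6 and 35.5 CPM untreated and 31.8 and 19.6 CPM with oxLDL in the mutant, and 13.8 and 20.04 CPM in wild type. The treated mutant libraries disagreed, 1 of them lying just below the untreated pair, and wild type was higher with oxLDL. Taking both genotypes together, the treated and untreated libraries overlapped. The log2 fold change in the mutant of -0.42 ± 0.23 did not pass (edgeR adjusted p = 0.212). Without mutant oxLDL replicate 1 it was -0.81 and passed (adjusted p = 0.00594).

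Asns, which encodes asparagine synthetase, measured 28.1 and 32.9 CPM untreated and 121 and 120 CPM with oxLDL in the mutant, and 31.6 and 120 CPM in wild type. Its 3 treated libraries lay almost on top of each other, and it rose 3.90-fold in the mutant (adjusted p = 0.000349). Mthfd2, a mitochondrial folate enzyme that uses the one-carbon units released from serine, measured 26.9 and 27.8 CPM untreated and 70.4 and 59.4 CPM with oxLDL in the mutant, and 23.2 and 73.1 CPM in wild type. It rose 2.35-fold (adjusted p = 0.00126). Aldh18a1, the entry enzyme of proline synthesis, rose 1.92-fold (adjusted p = 0.00377). Shmt2, the mitochondrial enzyme that splits serine to glycine, measured 38.6 and 44.0 CPM untreated and 54.6 and 50.9 CPM with oxLDL, and did not pass (log2 fold change 0.34 ± 0.11, adjusted p = 0.0607). It passed when no filter on low counts was used (adjusted p = 0.0392). Pycr1, the last step of proline synthesis, had 2 to 17 counts per library, which is too few to show a difference.

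The 9 cytosolic tRNA synthetases of the set all had higher levels with oxLDL, with log2 fold changes of 0.31 to 1.55 in the mutant. Of these, 8 passed. Sars, which charges serine, measured 90.5 and 78.3 CPM untreated and 248 and 251 CPM with oxLDL in the mutant, and 82.1 and 211 CPM in wild type. It rose 2.93-fold in the mutant (log2 fold change 1.55 ± 0.11, adjusted p = 0.000465), the largest change of this group. Eprs (glutamate and proline) measured 155 and 167 CPM untreated and 353 and 349 CPM with oxLDL, and 149 and 370 CPM in wild type. Its rise was 2.16-fold (adjusted p = 0.000808). Cars (cysteine) measured 42.9 and 38.5 CPM untreated and 88.9 and 86.4 CPM with oxLDL, and 37.3 and 92.1 CPM in wild type. Cars rose 2.13-fold. For all 3 of these genes the treated libraries lay above the untreated ones. Aars (alanine) measured 119 and 132 CPM untreated and 269 and 268 CPM with oxLDL in the mutant, and 140 and 254 CPM in wild type. It rose 2.12-fold in the mutant, and 13.1% of its sequence is also found in other genes, mainly Exosc6, so its counts are uncertain to that extent.

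Gars (glycine) rose 1.93-fold, Mars (methionine) 1.79-fold, Nars (asparagine) 1.67-fold and Wars (tryptophan) 1.64-fold, each with an edgeR adjusted p of 0.00377 or less. Iars (isoleucine) measured 116 and 133 CPM untreated and 165 and 147 CPM with oxLDL in the mutant. Its log2 fold change of 0.31 ± 0.11 did not pass (adjusted p = 0.0791), except when no filter on low counts was used (0.0385). Among all genes tested 35.6% passed, 16.5% rising. Of 11 other cytosolic synthetases listed for comparison, 4 rose and 7 did not pass, with a median log2 fold change of 0.11 and the largest change 0.77 (Yars, which charges tyrosine). Rars, Farsb and Tars rose 1.41-fold, 1.36-fold and 1.39-fold, each past the threshold. Without mutant untreated replicate 1 neither Farsb (adjusted p = 0.0774) nor Tars (0.0784) passed, nor did Farsb without mutant oxLDL replicate 1 (0.0719) or Tars without mutant oxLDL replicate 2 (0.0533). The synthetases of the set had a median of 0.95. Of 17 mitochondrial synthetases 6 rose and 11 did not pass, with a median of 0.39. In DESeq2, without mutant untreated replicate 2 and without mutant oxLDL replicate 2 the number that rose was 3. Among them Lars2 rose 1.64-fold, Iars2 1.54-fold and Wars2 1.79-fold.

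The ER group did not move as a unit. Hspa5, which encodes BiP, the main ER chaperone and the usual readout of ER stress, measured 946 and 744 CPM untreated and 944 and 797 CPM with oxLDL in the mutant, and 595 and 664 CPM in wild type. Its groups overlapped and its log2 fold change was 0.03 ± 0.16 (adjusted p = 0.908). Hsp90b1, the ER form of HSP90, measured 1141 and 1021 CPM untreated and 1113 and 951 CPM with oxLDL in the mutant, with a log2 fold change of -0.08 ± 0.14 (adjusted p = 0.684). Sdf2l1 and Creld2, smaller ER folding factors, changed by -0.15 ± 0.11 and -0.28 ± 0.13 on the log2 scale and did not pass either. The 3 members with the ER stress element shown above (Hspa5, Hsp90b1 and Creld2) are all among these 4. Among members with the ATF4 element, Atf3, Trib3, Chac1, Asns, Aars and Gars rose in the mutant. Nupr1, Iars and Pycr1 also have it and did not pass, and Herpud1 has it and fell. Atf4, Atf5, Phgdh and Sars rose with no match. A link between element and change was not tested.

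Xbp1 and Dnajb9 were the 2 of the ER group that rose. Xbp1, whose mRNA is spliced by the sensor IRE1 to give an active factor, measured 105 and 96.5 CPM untreated and 180 and 168 CPM with oxLDL in the mutant, and 110 and 168 CPM in wild type. It rose 1.71-fold in the mutant (log2 fold change 0.78 ± 0.09, adjusted p = 0.00253), and counts per gene do not separate its spliced and unspliced forms. Dnajb9, an ER co-chaperone known as a target of XBP1, measured 61.5 and 53.9 CPM untreated and 104 and 103 CPM with oxLDL in the mutant, and 59.0 and 80.1 CPM in wild type. It rose 1.77-fold in the mutant (adjusted p = 0.00274). Both genes kept all 3 treated libraries above all 3 untreated ones.

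Pdia4 and Herpud1 fell. Pdia4, a disulfide isomerase of the ER, measured 127 and 116 CPM untreated and 97.0 and 87.7 CPM with oxLDL in the mutant, and 128 and 93.2 CPM in wild type. It fell 1.33-fold in the mutant (adjusted p = 0.0262), which did not hold when mutant untreated replicate 1 (adjusted p = 0.115) or 2 (0.0508) or mutant oxLDL replicate 2 (0.133) was omitted. Herpud1, an ER membrane protein that helps degrade misfolded proteins, measured 52.6 and 56.5 CPM untreated and 38.8 and 35.01 CPM with oxLDL in the mutant. It fell 1.49-fold (log2 fold change -0.58 ± 0.11, adjusted p = 0.00919; 0.0506 without mutant untreated replicate 2). The pancreas is rich in ER folding genes, and its transcripts were present in the mutant oxLDL pair but nearly absent from the mutant untreated pair. Their part in the ER results was not tested.

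Genes upstream of these arms and the wider ER list were read beside them. Of 16 tested stress kinases, sensors and targets, 5 rose and 4 fell in the mutant (3 and 3 without mutant untreated replicate 2). Among all genes tested 16.5% rose and 19.1% fell. Eif2ak4 (GCN2), the eIF2 alpha kinase that senses uncharged tRNA, measured 41.5 and 38.9 CPM untreated and 84.7 and 81.9 CPM with oxLDL, a rise of 2.05-fold (adjusted p = 0.00111). Eif2ak2 (PKR), the kinase that senses double-stranded RNA and is itself induced by interferon, fell 3.43-fold. Ern1, which encodes IRE1 alpha, rose 1.89-fold, and Gadd45a, a stress-induced growth arrest gene, 6.21-fold. The kinase genes of this family therefore moved in both directions.

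The counts of the next lists are to be read beside the 16.5% of all genes tested that rose and the 19.1% that fell. Of 25 tested further ER folding and degradation genes 15 rose and 1 fell, with a median log2 fold change of 0.42 against -0.12 in the ER group of the set. Without mutant untreated replicate 1 or 2 those that rose numbered 10 and 9, and Derl3, the 1 that fell, did not pass without either, without mutant oxLDL replicate 2 or in DESeq2. Ero1l, an ER oxidase, rose 2.70-fold, Edem2, which marks misfolded glycoproteins for degradation, 2.24-fold, Hyou1, an ER chaperone of the HSP70 class, 1.87-fold, and Sec24d, a coat component of vesicles leaving the ER, 1.65-fold. So the wider list held genes that rose even though Hspa5 did not. Of 21 tested further enzymes of serine, one-carbon, glutamine and proline metabolism 5 rose and 7 fell (2 and 4 without mutant untreated replicate 2, and 4 and 4 without mutant oxLDL replicate 1). Aldh1l1, a cytosolic folate enzyme, fell 3.64-fold and Glul, which makes glutamine, 1.76-fold, while Got1, an aspartate transaminase, rose 1.79-fold.

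In wild type there is 1 library per arm, so differences are described by size on the log2 scale with a prior count of 2, without a p-value. Of the 35 members with at least 5 CPM in either library, 13 were at least 2-fold higher with oxLDL and 3 at least 2-fold lower, where 7.93% and 11.7% of all genes at that level were. The 13 were Atf4, Atf5, Atf3, Ddit3, Trib3, Cebpg, Ppp1r15a, Asns, Phgdh, Mthfd2, Cars, Sars and Eprs. The 3 that were lower were Ddit4, Sesn2 and Herpud1. In the ER group 7 of 8 lay within 2-fold.

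The wild-type differences broadly followed those of the mutant in order, and in size for many members but not all. Herpud1 (log2 -2.75 in wild type against -0.58 in the mutant) and Ppp1r15a (2.07 against 1.06) were among those that differed in size. Psat1, Hsp90b1, Sdf2l1 and Creld2 differed in sign. Atf5 was 11.2-fold higher with oxLDL in wild type, Trib3 13.8-fold, Phgdh 7.20-fold, Asns 3.78-fold and Atf4 3.01-fold. Across the 37 members the wild-type log2 difference and the fitted mutant log2 fold change had a Pearson r of 0.92 and a Spearman rho of 0.92. These 2 comparisons share no library, but genes are not independent replicates, and a member's values rest on the same few libraries. The pancreatic marker sum was 1.86 CPM in the treated and 283 CPM in the untreated wild-type library, and its part in these differences was not tested.

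**Figure D3:**
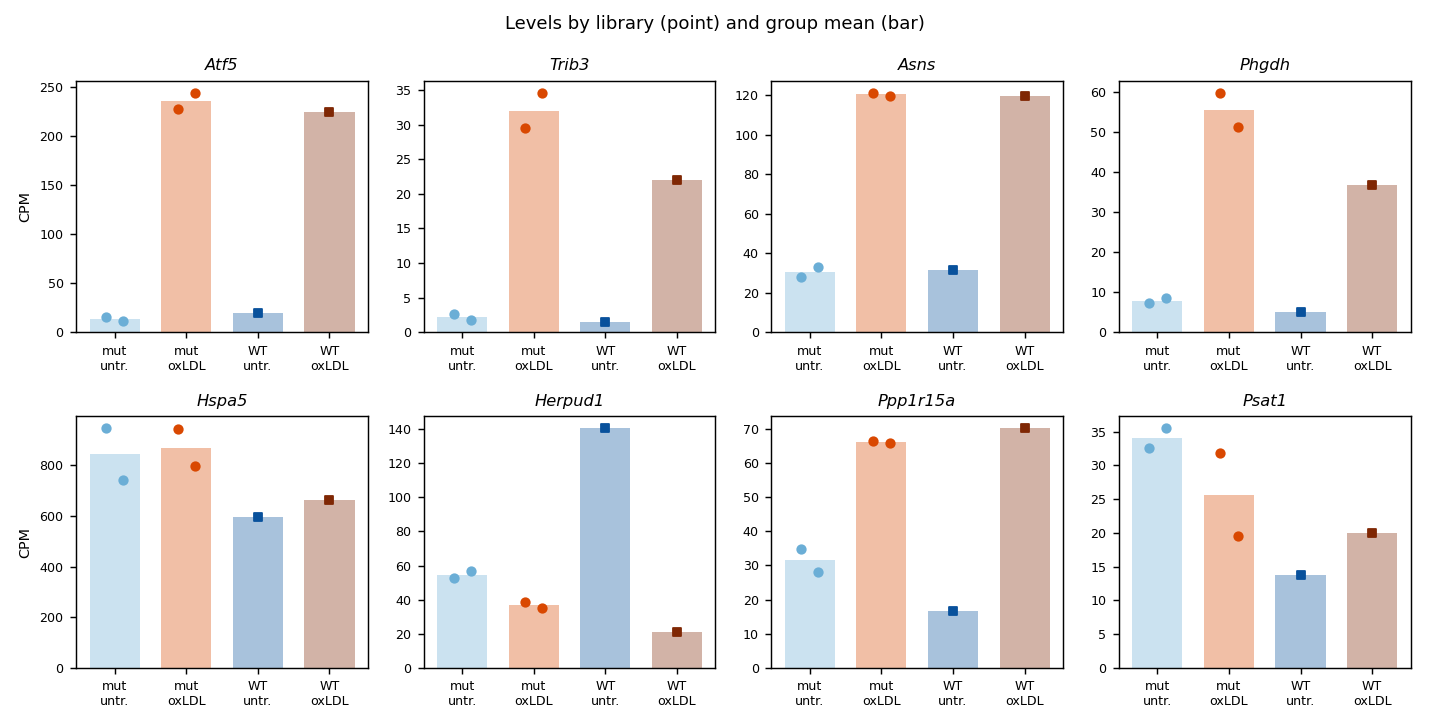
Levels in CPM of 8 genes, with a point for each library and a bar for the group mean; each panel has its own axis from 0. Atf5, Trib3, Asns and Phgdh are high in both oxLDL groups, Hspa5 is not, Herpud1 is highest in wild type untreated at 140 CPM, and Ppp1r15a and Psat1 are lowest there.

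The oxLDL response itself was compared between genotypes with the interaction of genotype and treatment, with the lone wild-type libraries taken to vary as the mutant pairs do. Herpud1 was the only member to pass, where 0.489% of all genes tested did. In wild type it measured 140 CPM untreated and 20.8 CPM with oxLDL. In the mutant it measured 52.6 and 56.5 CPM untreated and 38.8 and 35.01 CPM with oxLDL. The wild-type pair thus spanned the whole range, with the highest level of the 6 libraries untreated and the lowest with oxLDL. The interaction was 2.18 ± 0.18 on the log2 scale, the mutant minus the wild-type change (edgeR adjusted p = 0.0140), and it did not pass without mutant untreated replicate 1 (0.0598) or 2 (0.0512). The wild type untreated library is also one of those with pancreatic transcripts and has the highest neutrophil markers, whose part in this result was not tested.

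Ppp1r15a had an interaction of -1.02 ± 0.23 that did not pass (adjusted p = 0.212), except when no filter on low counts was used (0.00889). For Psat1 the interaction was -0.96 ± 0.41 (adjusted p = 0.470), and it passed without mutant oxLDL replicate 1 (-1.35, adjusted p = 0.0369). Atf4, Asns and Trib3 had interactions of 0.02 ± 0.18, 0.04 ± 0.19 and -0.01 ± 0.34, which places any difference in their response within the error of these few libraries. A p that misses the threshold does not show that the responses were alike.

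Between genotypes in untreated cells (2 mutant libraries against 1 wild type), 2 of 37 members passed, 1 higher and 1 lower, where 7.06% of all genes tested passed (4.24% higher and 2.82% lower). The wild-type library held 283 CPM of pancreatic markers against 3.15 and 3.45 CPM in the mutant pair, and the most neutrophil markers. The part of these transcripts in the untreated genotype differences, those of the ER group included, was not tested. Ppp1r15a was higher in the mutant, at 34.97 and 28.2 CPM against 16.6 CPM in wild type, or 0.94 ± 0.17 on the log2 scale (adjusted p = 0.0355; 0.0968 without mutant untreated replicate 1). Herpud1 was lower, at 52.6 and 56.5 CPM against 140 CPM, or -1.35 ± 0.12 on the log2 scale (adjusted p = 0.0101; 0.0534 without mutant untreated replicate 1). Psat1 measured 32.6 and 35.5 CPM against 13.8 CPM, a difference that did not pass (1.32 ± 0.30, adjusted p = 0.0590). It passed in DESeq2 (adjusted p = 0.00513), without a filter on low counts (5.74e-05) and without mutant oxLDL replicate 1 (0.00181) or 2 (0.00305). Psat1 and Shmt2 (0.59 ± 0.14, adjusted p = 0.0629) were both lowest in wild type untreated. Shmt2 passed without the low-count filter (0.0145), and when mutant oxLDL replicate 1 (0.0405) or 2 (0.0476) was omitted.

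In the ER group 4 of 8 members had a positive log2 fold change in the untreated mutant, as did 6162 of all 12689 genes tested. The 4 were Hspa5, Hsp90b1, Sdf2l1 and Creld2, none of which passed in the main test. Creld2 measured 22.3 and 22.04 CPM against 13.8 CPM, and its difference of 0.69 ± 0.17 missed the threshold (adjusted p = 0.0633). Omitting mutant oxLDL replicate 1 (0.0326) or 2 (0.0377), or the low-count filter (0.0197), brought it past. Sdf2l1 measured 38.8 and 34.3 CPM against 24.8 CPM (0.57 ± 0.14, adjusted p = 0.0667; 0.0463 without mutant oxLDL replicate 1 and 0.0232 without the low-count filter). Hspa5 and Hsp90b1 differed by 0.52 ± 0.20 and 0.48 ± 0.17 with adjusted p of 0.175 and 0.142. The 9 tRNA synthetases lay between -0.20 and 0.14. Xbp1, Dnajb9 and Pdia4 differed by -0.11, -0.02 and -0.06.

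**Figure D4:**
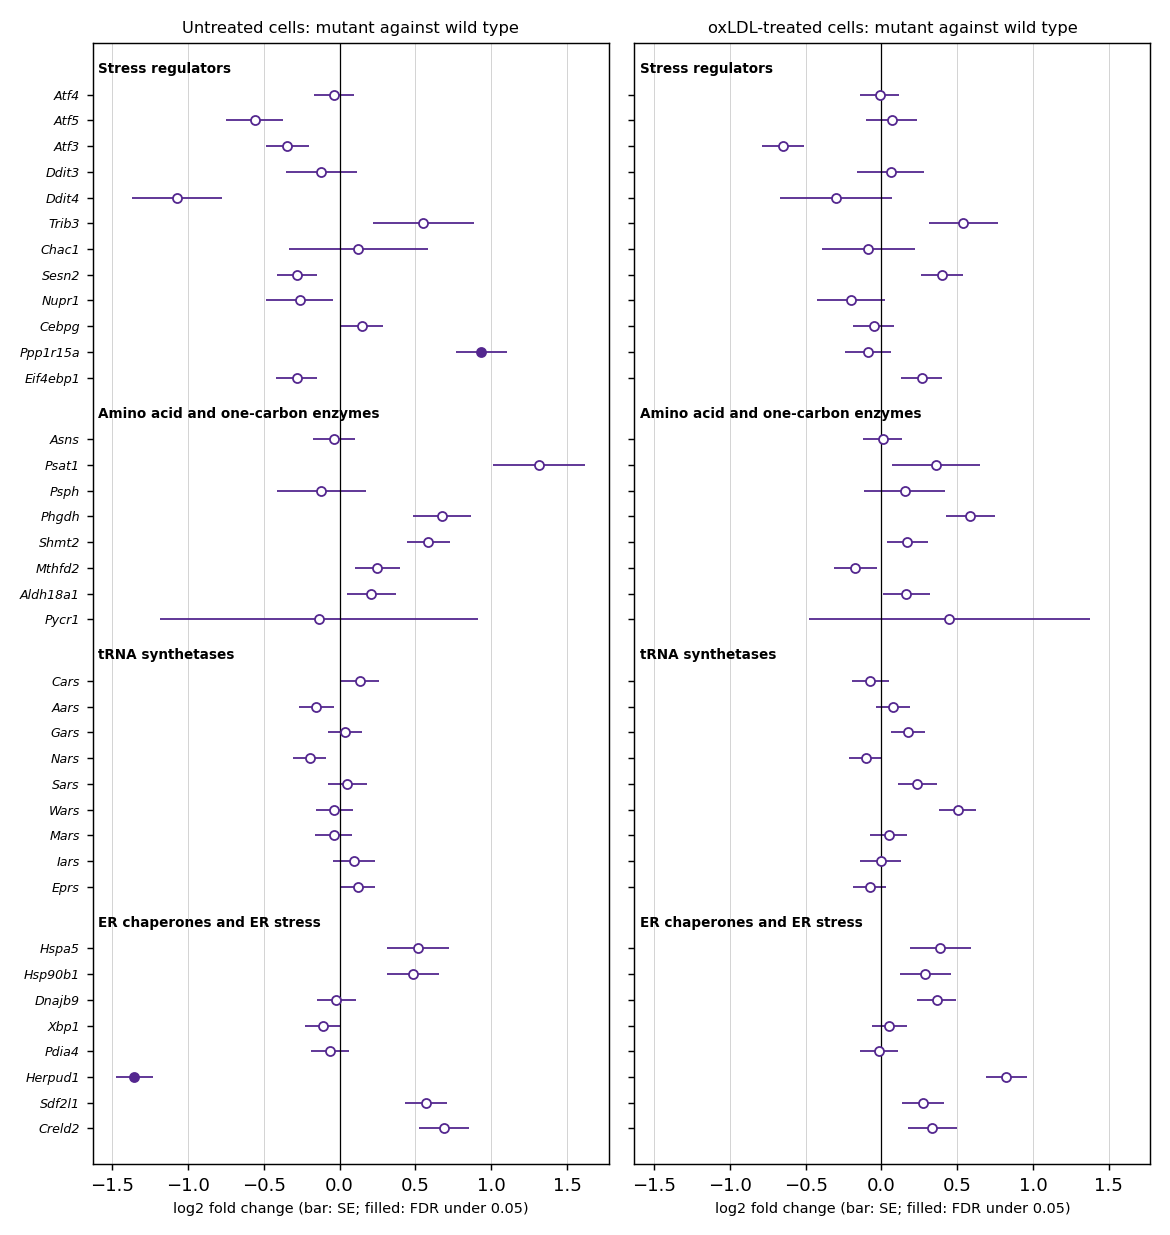
Log2 fold change of mutant against wild type in untreated (left) and oxLDL-treated cells (right), with SE bars and filled circles for a false discovery rate under 0.05; each panel sets 2 mutant libraries against 1 wild type. Ppp1r15a and Herpud1 are filled in untreated cells, and the Herpud1 circle changes side between the panels.

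Among oxLDL-treated cells 0 of 37 members passed in edgeR, where 0.481% of all genes tested did. At an unadjusted p under 0.05 there were 6 (16.2%), close to the 14.3% of all genes tested, and 2 passed in DESeq2, which called 3.14% of all genes with an adjusted p. Those 2 were Atf3 and Herpud1. Atf3 measured 296 and 330 CPM in the mutant and 490 CPM in wild type, or -0.65 ± 0.14 on the log2 scale (edgeR adjusted p = 0.137; DESeq2 adjusted p = 0.0119). Herpud1 measured 38.8 and 35.01 CPM against 20.8 CPM, or 0.82 ± 0.14 on the log2 scale (edgeR adjusted p = 0.0874; DESeq2 adjusted p = 0.0104; edgeR 0.0319 without mutant oxLDL replicate 2 and 0.0408 with the replicate block). Atf4 and Asns differed by -0.01 ± 0.13 and 0.01 ± 0.13, so the treated levels of these central members were close in both genotypes. The pancreatic marker sum was 212 and 168 CPM in the mutant and 1.86 CPM in wild type, and its part in these comparisons was not tested.

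With both treatments in 1 additive model, 4 mutant libraries were set against 2 wild-type ones. Pancreatic transcripts were higher in wild type among untreated cells and higher in the mutant among oxLDL-treated cells, and their part was not tested. Phgdh was the only member of 37 to pass, where 4.05% of all genes tested did (2.54% higher and 1.51% lower). It was higher in the mutant within each treatment, with 7.36 and 8.52 against 5.02 CPM untreated and 59.6 and 51.2 against 36.8 CPM with oxLDL, or 0.62 ± 0.12 on the log2 scale (adjusted p = 0.0479). The call is marginal. It was lost with the replicate block (adjusted p = 0.0998) and without mutant untreated replicate 1 (adjusted p = 0.106), mutant untreated replicate 2 (0.137), mutant oxLDL replicate 1 (0.117), wild type untreated (0.2002) or wild type oxLDL (0.0926). Trib3 differed by 0.54 ± 0.18 in the same direction and Atf3 by -0.50 ± 0.12 in the other, with adjusted p of 0.130 and 0.0655. Atf3 passed in DESeq2 (adjusted p = 0.00392) and without the low-count filter (0.0180). Of the ER group, Hspa5 (0.44, DESeq2 adjusted p = 0.0340), Hsp90b1 (0.38, 0.0294) and Creld2 (0.50, 0.0411) were higher in the mutant and also passed in DESeq2. In edgeR they did not pass (adjusted p = 0.124, 0.130 and 0.0812), except Creld2 without the low-count filter (0.0491). DESeq2 called 12.2% of all genes with an adjusted p here. Herpud1 changed side between treatments, so its value in this model (-0.43 ± 0.45) describes neither. Omitting either wild-type library leaves this model a comparison of genotypes within the other treatment only. Without wild type oxLDL, Herpud1 (-1.36) and Ppp1r15a (0.93) therefore repeat the untreated comparison above. Psat1 passed without mutant oxLDL replicate 2 (1.03, adjusted p = 0.0341) or the low-count filter (0.0410).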

How the data were processed

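Bowtie2 2.1.0, RSEM 1.2.15 and edgeR were used per the submitters' processing notes. The only build listed there is hg19 although the gene symbols are those of mouse, so which build the reads were aligned to is unknown here. Deposited by the authors were expected counts per gene from RSEM and a TMM-normalised signal per gene. In that deposited signal 100% of values were whole reads within 0.01, and at least 99.89% of them equalled the rounded expected counts in each library. From 250 ng RNA, stranded polyA libraries were prepared and read as 150-base pairs, per the labels' protocols.

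Expected counts were rounded. Of 17143 genes with any count, 12689 passed filterByExpr and were tested with edgeR 4.0.16 (R 4.3.3) quasi-likelihood F-tests, with TMM factors and Benjamini-Hochberg adjustment over all of them. A model of 4 group means gave 4 of the 5 tests and an additive model gave genotype across treatments; each lone wild-type library is taken to vary as the mutant pairs do. SE is the size of the log2 fold change divided by the square root of F. CPM uses library size times TMM factor. Levels differ between genes partly by transcript length, so they are compared only within a gene. Only the test of oxLDL in the mutant was checked on simulated data, with the same spread set for every gene. The genotype and interaction tests were not checked in this way. Shared sequence is the percentage of 75-base stretches found in other GENCODE M21 genes, and is given where it was above 10% for a member.

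The members and the lists for comparison were chosen with earlier results of these data known. Values in every library are given for members at least 2-fold changed with oxLDL, past the threshold in a genotype comparison, or Atf4, Ddit3, Hspa5 and Xbp1, and for some others; listed genes of the wider pathway are named by smallest p, up to 4 a list. Some genes that this rule or the tests would name are not reported here. Alternatives were other scaling factors, DESeq2 1.42.0, no filter, a block, each library left out and, chosen after seeing the data, the whole reads of the normalised signal.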

Additional observations from a re-analysis of the deposited data

Results flagged for a closer look

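The oxLDL change differed between genotypes by the interaction test for Herpud1, with a log2 difference of 2.18, the mutant minus the wild-type change. Of the genes listed beside the members it also differed for Cebpb, which encodes a C/EBP factor that can pair with ATF4. Cebpb measured 31.0 and 27.9 CPM in mutant untreated, 17.4 and 18.4 CPM in mutant oxLDL, 16.7 CPM in wild type untreated and 34.1 CPM in wild type oxLDL. Its log2 difference was -1.76 ± 0.21 (edgeR adjusted p = 0.0391), which did not pass without mutant untreated replicate 1 (0.164) or 2 (0.124). Wild type enters both with 1 library per arm.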

How the results depend on the processing

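For oxLDL in the mutant, 24 of the 28 called members stayed called under all alternatives run, and the count was 24 to 29 with 1 library left out and 27 in DESeq2. Counts in the genotype comparisons rest on few libraries. Members called across treatments numbered 1, and 5 in DESeq2, 4 without the filter, 0 with the replicate block and 0 to 2 with 1 library left out. In untreated cells they numbered 2, and 9 without the filter, 7 with the replicate block and 0 to 6 with 1 library left out. In oxLDL-treated cells they numbered 0, and 2 in DESeq2, 3 without the filter, 1 with the replicate block and 0 to 1 with 1 left out. For the interaction they numbered 1, and 2 without the filter and 0 to 2 with 1 left out. All genes called with oxLDL in the mutant numbered 4515 (2626 to 4529 with 1 left out). Across treatments the count was 514 (DESeq2 1513, no filter 1387, 8 to 877 with 1 left out). In untreated cells it was 896 (no filter 2435, replicate block 1870, 80 to 1822). In oxLDL-treated cells it was 61 (DESeq2 391, no filter 974, replicate block 462, 5 to 473), and for the interaction 62 (DESeq2 221, no filter 546, replicate block 162, 19 to 246). The all-gene counts are out of 12689 genes in the main fit and with the replicate block, and out of 17143 without the filter. DESeq2 called 3699 or 29.2% of all genes for oxLDL in the mutant, where 27 of 37 members passed. Across treatments it called 12.2% of genes with an adjusted p, where 5 of 37 members passed. The cause of the shifts between settings was not tested. Cebpb across treatments (-0.14) was 0.83 without wild type oxLDL and -0.93 without wild type untreated, each of which leaves the comparison within the other treatment. In wild type, with 1 library per arm, 24 members passed in the 4-group fit (23.2% of all genes tested did), against 16 by size. Mutant libraries share the numbers 1 and 2, but the labels do not say that a number marks an animal. Over genes the difference between replicates correlated at 0.20 between the 2 mutant pairs. Under that block Psat1 (adjusted p = 0.0204), Hspa5 (0.0287), Hsp90b1 (0.0447), Sdf2l1 (0.0404) and Creld2 (0.0413) passed in untreated cells, and Phgdh across treatments did not (0.0998), and Herpud1 passed in oxLDL-treated cells (0.0408). Pycr1 and Chac1 had the widest errors for oxLDL in the mutant, and Pycr1 the fewest counts.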

Other observations

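Between genotypes in untreated cells, few of the genes listed beside the members passed. They were 1 of 16 tested stress kinases, sensors and targets, 2 of 21 further enzymes and 2 of 25 further ER genes. Of the other synthetases 0 of 11 cytosolic and 0 of 17 mitochondrial ones passed, where 7.06% of all genes tested did. Of the listed genes that passed, 4 are given here, named after their values were seen. Cebpb, Gcsh (a subunit of the mitochondrial glycine cleavage system) and Ero1lb (an ER oxidase) were higher in the mutant, by log2 fold changes of 0.83 ± 0.15, 0.96 ± 0.15 and 0.58 ± 0.12. Derl1 (an ER degradation channel) was lower, by -0.54 ± 0.11. Gcsh measured 29.4 and 33.2 CPM in the mutant and 16.3 CPM in wild type. Each of the 4 lost its call without mutant untreated replicate 1 and also without replicate 2, with edgeR adjusted p of 0.0771 to 0.131, and Ero1lb also in DESeq2 (0.0607).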
